A study of Rattus norvegicus with 32 samples.

Results

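The proteasome genes of the rat uterus were examined across 8 groups of females that had been exposed to bisphenol A, ethinyl estradiol or vehicle until 1 year of age. Members were the genes of the deposited count table whose symbol starts with Psma, Psmb, Psmc, Psmd, Psme, Psmf or Psmg, without pseudogenes and without the 3 immunoproteasome subunits Psmb8, Psmb9 and Psmb10. The rule found 46 of the 17327 genes of the table, all 46 passed the filter on low counts that left 13312 genes, and none was at 0 counts in any library. Another 5 genes of the RefSeq table that meet the rule had no row in the count table and are not analysed here. The members were 8 alpha and 8 beta subunits of the core particle, 6 ATPases and 11 other subunits of the regulatory particle, 5 activators or inhibitors and 6 assembly chaperones. The remaining 2, Psmc3ip and Psme3ip1, match the rule by their symbols, are not subunits and are named after the members they bind.

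The animals were Sprague-Dawley rats bred at NCTR (strain Sprague-Dawley/CD23/NctrBR), and the uterus was taken at PND365. Dams were gavaged from gestation day 6 until labor, and pups were gavaged directly from postnatal day 1 to the end. Bisphenol A (BPA), a plastics monomer that binds estrogen receptors, made up 5 groups, named BPA 2.5, BPA 25, BPA 250, BPA 2500 and BPA 25000 by the daily dose in µg per kg of body weight. Ethinyl estradiol (EE2), an orally active estrogen, made up 2 groups named the same way, EE2 0.05 and EE2 0.5, and controls received the vehicle, 0.3% carboxymethylcellulose. Each group held 4 libraries, 32 in all. The labels name no animal, litter, batch or stage of the estrous cycle, so p-values measure the spread between these libraries, and all 7 comparisons with control share the same 4 control libraries.

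The proteasome degrades proteins that carry ubiquitin chains. Its core particle is a barrel of stacked rings, in which the outer alpha rings gate the entry and the inner beta rings hold the proteolytic sites, carried by Psmb5, Psmb6 and Psmb7. The regulatory particle caps the barrel: its Psmc ATPases unfold substrates and pull them in, and its Psmd subunits include the ubiquitin receptor Psmd4 and the deubiquitinase Psmd14. Psme1 and Psme2 form an alternative cap, Psme3 and Psme4 form others, and Psmf1 is an inhibitor of the core particle. In mammalian cells the subunits are often transcribed together, and the transcription factors Nfe2l1 and Nfe2l2 are known to raise them through antioxidant response elements.

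Total counts were between 11777809 and 24661856 per library, and members took 0.339% to 0.454% of them. Levels are given as CPM (counts scaled to a common total, on library sizes adjusted by TMM) and were compared within a gene only. For 19 members the annotation holds pseudogenes named after them, and 8 members overlap another gene of the table, so part of their reads may be shared. The labelled tissue was checked against its markers: Esr1, Pgr, Hoxd10 and Wnt7a, the 4 of 6 listed uterus markers with a row in the table, had counts in all 32 libraries. Libraries 1 and 3 of BPA 2.5, 1 of BPA 250 and 3 of BPA 25000 stood apart: their median correlation with the other libraries over log2 CPM was between 0.892 and 0.926, and that of the other 28 libraries was between 0.938 and 0.960. Results are therefore also given without these 4 libraries for part of the members, not for every member whose size moved. In bulk tissue, fewer cells of a type and less RNA per cell cannot be told apart.

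Promoter sequences of RefSeq (assembly GRCr8, from 250 bases before the annotated start to 50 after) were present for 41 of the 46 members. They are shown for the members on which the results turn: Psma3 and Psmb3, lowest at BPA 2.5, the catalytic subunit Psmb5, called lower at BPA 2.5 and BPA 25000, and Psmc3 and Psmd4, lowest at BPA 250. The mean of Psmb5 was below the control mean at every BPA dose. Capitals mark matches on either strand to the antioxidant response element core (TGACNNNGC) and to the CCAAT box (CCAAT), which did not overlap in these windows. The windows lie at chr6:95219499-95219798 (plus strand), chr10:83193537-83193836 (plus strand), chr15:32047330-32047629 (minus strand), chr3:97487393-97487692 (plus strand) and chr2:185297152-185297451 (minus strand), and are written 5′ to 3′ on the strand of the gene.
Psma3: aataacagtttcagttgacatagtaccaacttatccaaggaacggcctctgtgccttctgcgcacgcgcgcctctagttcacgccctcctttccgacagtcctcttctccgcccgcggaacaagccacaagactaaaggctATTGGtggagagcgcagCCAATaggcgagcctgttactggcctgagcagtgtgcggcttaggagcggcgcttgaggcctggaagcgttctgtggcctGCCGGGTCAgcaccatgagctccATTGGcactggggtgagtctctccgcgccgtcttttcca
Psmb3: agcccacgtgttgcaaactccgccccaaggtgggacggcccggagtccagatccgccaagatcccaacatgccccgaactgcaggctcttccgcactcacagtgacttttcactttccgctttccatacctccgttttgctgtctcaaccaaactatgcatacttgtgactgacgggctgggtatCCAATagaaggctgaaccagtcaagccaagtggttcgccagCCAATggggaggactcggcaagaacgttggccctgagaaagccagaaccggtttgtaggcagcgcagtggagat
Psmb5: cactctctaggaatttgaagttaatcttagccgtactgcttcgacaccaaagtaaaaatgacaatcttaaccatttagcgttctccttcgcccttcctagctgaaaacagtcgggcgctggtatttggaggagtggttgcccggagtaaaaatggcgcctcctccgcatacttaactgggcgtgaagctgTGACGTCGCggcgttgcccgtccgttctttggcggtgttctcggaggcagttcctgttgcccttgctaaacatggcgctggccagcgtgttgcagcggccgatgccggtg
Psmc3: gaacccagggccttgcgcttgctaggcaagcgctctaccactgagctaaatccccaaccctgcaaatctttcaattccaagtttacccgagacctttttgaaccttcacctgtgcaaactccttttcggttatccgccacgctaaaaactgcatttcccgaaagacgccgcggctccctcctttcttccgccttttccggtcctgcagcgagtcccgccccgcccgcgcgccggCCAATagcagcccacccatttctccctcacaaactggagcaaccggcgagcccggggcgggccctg
Psmd4: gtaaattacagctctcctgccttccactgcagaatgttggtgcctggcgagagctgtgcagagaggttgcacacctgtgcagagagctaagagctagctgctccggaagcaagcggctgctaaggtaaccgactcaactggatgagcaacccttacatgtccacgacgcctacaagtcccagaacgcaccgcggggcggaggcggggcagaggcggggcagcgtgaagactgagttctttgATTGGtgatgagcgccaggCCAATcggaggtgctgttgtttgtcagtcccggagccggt

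The antioxidant response element core was present in the windows of Psma3 and Psmb5 and in 8 of the 41 member promoters (19.5%), against 12.2% of all 27457 rat promoters of the same length. The CCAAT box was present in 48.8% of member promoters, among them Psma3, Psmb3, Psmc3 and Psmd4, against 37.7% of all promoters. Of the other motifs searched on both strands, the ETS site CCGGAAG was present in 39.0% of member promoters and 9.2% of all, the GC box GGGCGG in 73.2% and 34.9%, and the YY1 core AAGATGG in 29.3% and 7.3%. Over the 13630 promoters of genes in the count table, from which the members were drawn, the shares were 13.5% for the antioxidant response element core, 37.9% for the CCAAT box, 13% for the ETS site, 49.4% for the GC box and 7.5% for the YY1 core. The end of the ETS letters and the start of the YY1 letters can share bases. The 5 motifs were chosen with results of these data known, and a match describes letters, not binding.

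Most proteasome genes had lower levels in the exposed uteri than in the controls, by a median that was widest at the lowest BPA dose, and most calls were made at BPA 2.5 and BPA 250. The number of members with a log2 fold change below 0 against control was 41 of 46 at EE2 0.05 and 40 at EE2 0.5, and 40, 33, 35, 42 and 40 at BPA 2.5 to BPA 25000, where between 46.1% and 51.6% of all 13312 genes were below 0. The median log2 fold change of the members was -0.26 at both EE2 doses, and -0.45, -0.15, -0.19, -0.19 and -0.21 from BPA 2.5 to BPA 25000, and the median of all genes lay between -0.02 and 0.05. Other housekeeping genes also lay mostly below control. Of 72 cytosolic ribosomal protein genes, 53 (BPA 25) to 72 (BPA 2.5) were below 0. Of 80 nuclear respiratory chain genes, 59 (BPA 250) to 77 (BPA 2.5) were below 0. Their medians were also widest at BPA 2.5, at -0.78 and -0.63. The same 4 control libraries stand in all of these comparisons, so the 7 directions are not independent. The control group had the highest mean of the 8 groups for 25 of the 46 members, and BPA 2.5 had the lowest for 18. The same counts were not made over all genes, so these numbers describe the members only.

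**Figure D1:**
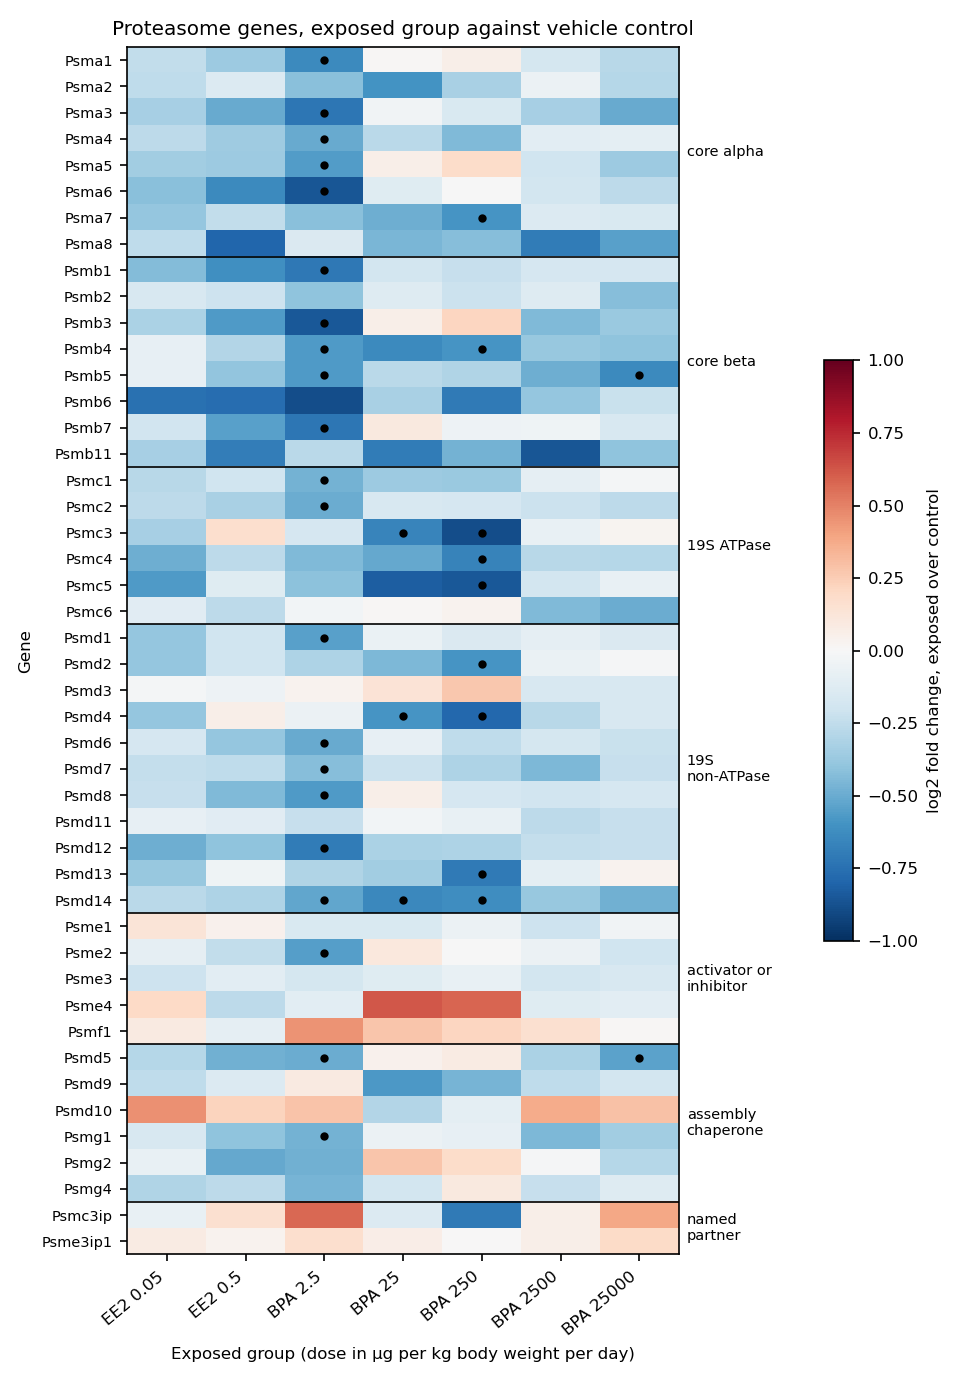
Heat map of the log2 fold change against control of the 46 proteasome genes (rows, ordered by role) in the 7 exposed groups (columns); blue is lower and red higher than control, and black dots mark an adjusted p under 0.05. Of the 21 dots of the BPA 2.5 column 10 lie among core subunits, and of the 9 dots of the BPA 250 column 7 lie among the ATPases and Psmd subunits of the regulatory particle.

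Per library, the median over members of log2 CPM, centred on the mean of the 32 libraries, was between -0.39 and -0.07 at BPA 2.5 and between -0.39 and 0.15 over all 28 exposed libraries, against 0.14 to 0.33 in the 4 control libraries. Only a library of BPA 25000 reached the lowest control library. Members took 0.375% ± 0.0272 of counts at BPA 2.5 and 0.441% ± 0.0125 in controls (SD, n = 4 each). Housekeeping genes of other machines lay beside them: the same median of 72 cytosolic ribosomal protein genes was between -1.03 and 0.09 at BPA 2.5 and between -0.07 and 0.76 in controls, and that of 80 nuclear respiratory chain genes between -0.62 and 0.01 at BPA 2.5 and between 0.01 and 0.52 in controls. Ribosomal and respiratory chain medians of exposed and control libraries overlapped, as did those of the members through that BPA 25000 library. Against control, both of these gene sets had a lower median log2 fold change than the members in each exposed group, with 1 exception. At BPA 25000 the ribosomal median was -0.19, against -0.21 for the members. At EE2 0.5 the ribosomal and respiratory chain medians were -0.49 and -0.45, against -0.26 for the members.

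**Figure D2:**
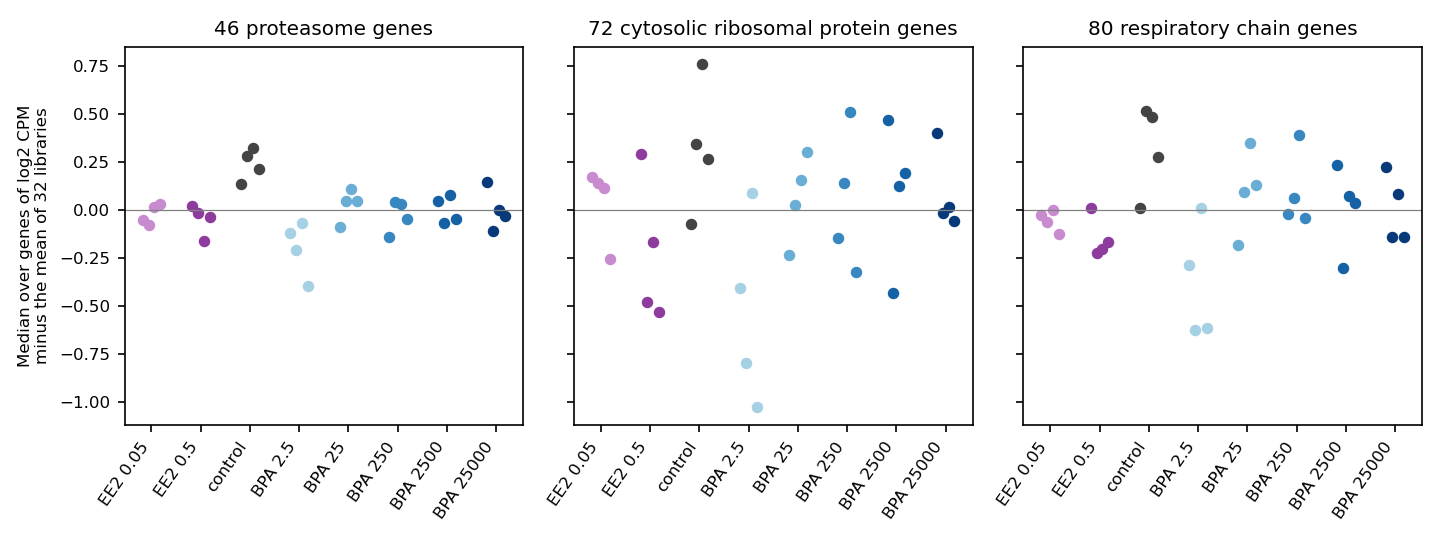
Median over genes of log2 CPM, centred per gene on the mean of the 32 libraries (vertical axis, log2 units), for 46 proteasome, 72 ribosomal protein and 80 respiratory chain genes; each point is a library. The 4 control libraries lie between 0.14 and 0.33 for proteasome genes, and the 4 BPA 2.5 libraries lie between -0.39 and -0.07.

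BPA 2.5 was the group in which most members passed the test: 21 of 46 fell and none rose at an adjusted p under 0.05 in edgeR's quasi-likelihood test, where 11.4% of all genes were called, 7.06% higher and 4.39% lower. The 4 BPA 2.5 libraries were all below the 4 control libraries for 23 members, against 5.72% of all genes. By role, 5 of 8 alpha subunits, 5 of 8 beta subunits, 2 of 6 ATPases, 6 of 11 other subunits of the regulatory particle, 2 of 6 assembly chaperones and 1 of 5 activators or inhibitors fell. In all 21 every BPA 2.5 library was below the control mean. Beside them, 38 of 72 ribosomal protein genes (median log2 fold change -0.78) and 36 of 80 respiratory chain genes (median -0.63) fell in the same comparison.

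Among the alpha subunits, Psma6 had 56.5, 48.6, 75.4 and 37.5 CPM at BPA 2.5, against 90.7, 92.9, 119 and 90.9 CPM in controls. Its log2 fold change was -0.85 (SE 0.21, adjusted p = 0.01 in edgeR's test), and the 2 groups did not overlap. Psma3 had 115, 129, 112 and 72.4 CPM at BPA 2.5, against 169.6, 176, 188 and 172 CPM in controls. All 4 exposed libraries were well under the lowest control, library 4 most of all, and the log2 fold change was -0.72 (SE 0.16, adjusted p = 0.00495, edgeR). Psma1, Psma5 and Psma4 fell by 0.64, 0.56 and 0.51 on the log2 scale. Psma2 (-0.42), Psma7 (-0.42) and Psma8 (-0.14) did not pass.

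Among the beta subunits, Psmb3, a structural subunit, had 43.7, 40.6, 43.6 and 29.1 CPM at BPA 2.5, against 58.2, 76.1, 79.4 and 68.8 CPM in controls. The highest exposed library was below the lowest control, with a log2 fold change of -0.85 (SE 0.17, adjusted p = 0.00357, edgeR). Of the 3 catalytic subunits, Psmb7, which carries the trypsin-like site, had 27.8, 30.3, 26.9 and 21.4 CPM at BPA 2.5, against 38.4, 42.1, 51.96 and 43.4 CPM in controls (log2 fold change -0.73, SE 0.19, adjusted p = 0.0163, edgeR). Psmb5, which carries the chymotrypsin-like site, had 38.8, 35.5, 50.5 and 40.02 CPM at BPA 2.5, against 56.2, 66.02, 68.2 and 53.4 CPM in controls. Both were lower in every exposed library than in any control, and Psmb5 had a log2 fold change of -0.56 (SE 0.17, adjusted p = 0.0289, edgeR).

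Psmb6, which carries the caspase-like site, had 22.9, 8.47, 36.6 and 20.8 CPM at BPA 2.5, against 33.1, 43.8, 47.1 and 40.3 CPM in controls. Its libraries were widely spread, and with a log2 fold change of -0.89 (SE 0.32) it did not pass (adjusted p = 0.065, edgeR). Without the 4 libraries that stood apart its log2 fold change was -1.48 (adjusted p = 0.0214, edgeR). That fit kept only BPA 2.5 libraries 2 and 4 (8.47 and 20.8 CPM) and left out the 2 highest of the group (22.9 and 36.6 CPM). Psmb1 had 45.1, 36.6, 63.3 and 32.9 CPM at BPA 2.5, against 56.9, 79.1, 82.9 and 72.8 CPM in controls, so library 3 overlapped the lowest control, and it fell by 0.71 on the log2 scale (SE 0.23, adjusted p = 0.0381, edgeR). Psmb1 overlaps Tbp in the annotation, and the use of strand in counting is not given in the sources used here. Psmb4 fell by 0.56, and Psmb2 (-0.40) did not pass.

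In the regulatory particle, Psmd12, a subunit of the lid, had 63.9, 47.3, 58.4 and 47.7 CPM at BPA 2.5, against 74.6, 94.7, 102 and 82.8 CPM in controls. The groups did not overlap, and the log2 fold change was -0.70 (SE 0.13, adjusted p = 0.00329, edgeR), the smallest p among members. Psmd14, the deubiquitinase that removes the chain before degradation, had 138, 133, 110.2 and 93.6 CPM at BPA 2.5, against 173, 177, 168 and 165 CPM in controls (log2 fold change -0.52, SE 0.16, adjusted p = 0.0298, edgeR). Psmd8, Psmd1, Psmd6 and Psmd7 fell by 0.56, 0.54, 0.51 and 0.43 on the log2 scale. The ATPases Psmc2 and Psmc1 fell by 0.50 and 0.48. The ubiquitin receptor Psmd4 had 64.7, 64.8, 74.8 and 79.03 CPM at BPA 2.5, against 65.4, 82.6, 68.1 and 79.7 CPM in controls, and its groups overlapped widely (log2 fold change -0.06).

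Of the activators, Psme2 had 32.6, 26.4, 30.7 and 29.5 CPM at BPA 2.5, against 43.7, 41.4, 45.00 and 44.01 CPM in controls (log2 fold change -0.55, SE 0.16, adjusted p = 0.0257, edgeR). Its partner in the same cap, Psme1, had a log2 fold change of -0.15 and did not pass. The inhibitor Psmf1 had 54.1, 18.7, 44.04 and 33.2 CPM at BPA 2.5, against 27.1, 24.8, 31.7 and 26.05 CPM in controls, with library 2 below every control and the other 3 above them (log2 fold change 0.45, adjusted p = 0.173, edgeR). Of the assembly chaperones, Psmg1, which helps to build the alpha ring, fell by 0.48 and Psmd5, which holds ATPases during assembly of the base, by 0.50; the ranges of both overlapped the controls. Psmc3ip, a partner by name that acts in meiotic recombination, had a log2 fold change of 0.57 and did not pass. The 6 members with a positive log2 fold change at BPA 2.5 were Psmc3ip, Psmf1, the chaperones Psmd10 (0.29) and Psmd9 (0.09), Psme3ip1 (0.17) and the lid subunit Psmd3 (0.03), none of which passed. Without the 4 libraries that stood apart, the log2 fold change was -0.07 for Psmf1, 0.11 for Psmc3ip and 0.43 for Psmd3. It was 0.07 for Psmd10, 0.14 for Psmd9 and 0.08 for Psme3ip1.

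The count at BPA 2.5 changed with the libraries in the fit. Leaving out control library 3 gave 7, control library 2 gave 10, control library 4 gave 13 and BPA 2.5 library 1 gave 13, and the count was 0 when the fit held only the BPA 2.5 and control libraries, which called 57 genes in all. The shares of all genes called in the fits without 1 library are not given here. Psma3, Psmb3 and Psmd12 passed whichever of the 32 libraries was left out; Psma6 and Psmb7 lost the call without control library 3. Psmb5 lost it without control library 2 or 3 or BPA 2.5 library 1 or 2, Psme2 without control library 3 or 4 or BPA 2.5 library 1, 2 or 3, and Psmd14 without any single control library or BPA 2.5 library 3 or 4. Psmb1 lost it without control library 2, 3 or 4 or BPA 2.5 library 1, 2 or 4, and Psmg1 without control library 2, 3 or 4 or BPA 2.5 library 1 or 4. Without the 4 libraries that stood apart, which leaves BPA 2.5 libraries 2 and 4, 13 members fell, 11 of them among the 21, where 3.92% of all genes were called, and the median log2 fold change was -0.54. The 10 that did not pass there were Psmb4, Psmb7, Psmd1, Psmd5, Psmd6, Psmd7, Psmd8, Psmd14, Psme2 and Psmg1, and Psma7 and Psmb6 passed in addition.

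Markers of other cells also differed at BPA 2.5. The summed level of 6 ciliated cell markers, all 6 in the table with counts, was 460, 3.46, 333 and 3.63 CPM in BPA 2.5 libraries 1 to 4 and between 1.26 and 3.48 CPM in controls. The 5 squamous epithelium markers in the table, of 6 listed, summed to 25.8 to 35.6 CPM at BPA 2.5 and 1.52 to 4.94 CPM in controls. The 6 smooth muscle markers summed to 10069 to 26394 CPM at BPA 2.5 and 17213 to 33204 CPM in controls, and the 4 uterus markers to 295 to 487 CPM at BPA 2.5 and 491 to 585 CPM in controls. No marker of these lists was at 0 in all libraries of either group. The ciliated markers were high in libraries 1 and 3. The part of the ciliated, squamous, muscle and uterus markers in the result was not tested.

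**Figure D3:**
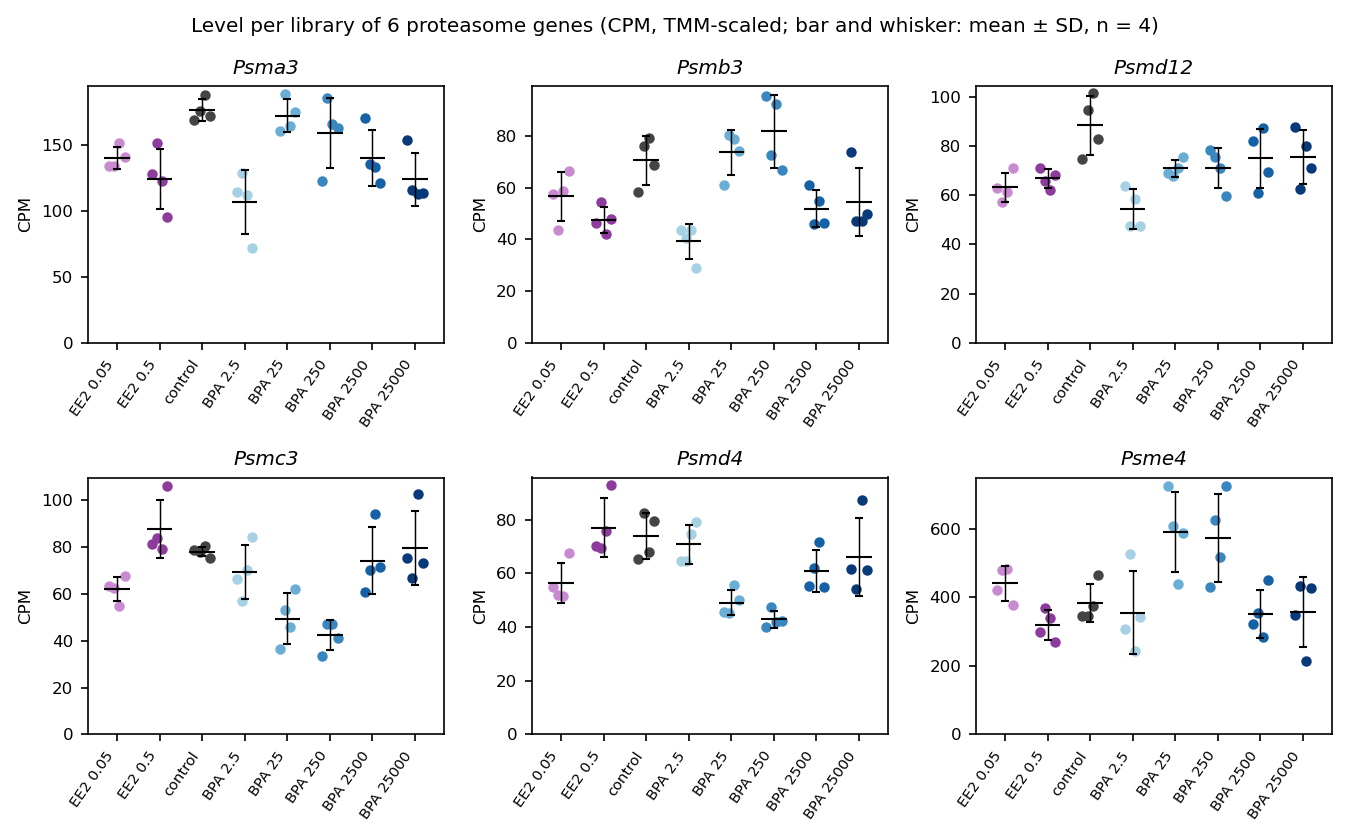
Level in CPM (vertical axis, from 0) of 6 proteasome genes in each of the 32 libraries by group; points are libraries, the bar is the mean and the whisker the SD (n = 4). Psma3, Psmb3 and Psmd12 are lowest at BPA 2.5, Psmc3 and Psmd4 are lowest at BPA 250, and Psme4 is highest at BPA 25 and BPA 250.

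At BPA 250 the members that fell lay mostly in the regulatory particle. In edgeR's test 9 of 46 members fell and none rose, where 8.79% of all genes were called, 4.44% higher and 4.35% lower, and for 16 members all 4 exposed libraries were below all 4 controls, against 9.77% of all genes. The 9 were the ATPases Psmc3, Psmc4 and Psmc5, the subunits Psmd2, Psmd4, Psmd13 and Psmd14, the alpha subunit Psma7 and the beta subunit Psmb4, and in each of them the 2 groups did not overlap. Of the ribosomal protein genes 4 of 72 fell, and of the respiratory chain genes 6 of 80.

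Psmc3, an ATPase of the base, had 33.6, 47.4, 47.1 and 41.2 CPM at BPA 250, against 78.6, 78.01, 80.4 and 75.6 CPM in controls. The highest exposed library was far below the lowest control, with a log2 fold change of -0.88 (SE 0.16, adjusted p = 0.00527, edgeR). Psmd4 had 40.1, 47.5, 41.97 and 42.4 CPM at BPA 250, against 65.4, 82.6, 68.1 and 79.7 CPM in controls. Its 4 exposed libraries lay close together, and the log2 fold change was -0.78 (SE 0.14, adjusted p = 0.00527, edgeR). Psmc5, another ATPase, had 53.7, 46.4, 47.8 and 35.1 CPM at BPA 250, against 77.2, 95.3, 78.05 and 79.5 CPM in controls (log2 fold change -0.85, SE 0.22, adjusted p = 0.0229, edgeR).

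Psmd13, a lid subunit, fell by 0.71 on the log2 scale, Psmc4 by 0.67, Psmd14 by 0.62, Psma7 by 0.59 and Psmd2, a scaffold of the base, and Psmb4 by 0.59 each. The activator Psme4, a cap linked to DNA repair and to the degradation of acetylated histones, had a level above every control in 3 of 4 libraries. It had 429.6, 627, 518 and 725 CPM at BPA 250, against 347, 345, 376 and 465 CPM in controls, and with a log2 fold change of 0.58 it did not pass (SE 0.22, adjusted p = 0.0871, edgeR). Without the 4 libraries that stood apart it was 0.72 (adjusted p = 0.0315, edgeR). Psmb3, lowest at BPA 2.5, had 95.5, 72.6, 92.4 and 66.8 CPM at BPA 250 (log2 fold change 0.21 against control).

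Leaving out BPA 250 library 1 gave a count of 2, control library 2 gave 4 and BPA 250 library 4 gave 5, with the shares of all genes not given here. Psmc3 and Psmd4 passed whichever library was left out. Psmd13 lost the call without BPA 250 library 1, Psmc4 without that library or control library 2, Psmd14 without either or BPA 250 library 4, and Psmc5 without any of these 3 or control library 4. Without the 4 libraries that stood apart, 8 members fell, all among the 9, and Psmb4 did not pass. In that fit 6.58% of all genes were called. The 4 red blood cell markers, all with counts, summed to 329 to 518 CPM at BPA 250 and 197 to 299.6 CPM in controls, without overlap. The 5 macrophage markers summed to 233 to 362 CPM at BPA 250 and 160 to 255 CPM in controls, the 4 uterus markers to 364.96 to 494 CPM at BPA 250 and 491 to 585 CPM in controls, and the ciliated markers to 2.08 to 15.95 CPM at BPA 250 and 1.26 to 3.48 CPM in controls. The part of these markers in the result was not tested.

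At BPA 25, 3 of 46 members fell in edgeR's test, all of them in the regulatory particle, where 1.92% of all genes were called, 0.954% higher and 0.969% lower. For 12 members all 4 exposed libraries were below all 4 controls, against 9.79% of all genes. Psmc3 had 36.7, 53.2, 45.8 and 62.2 CPM at BPA 25, Psmd4 had 45.5, 45.4, 55.5 and 50.1 CPM and Psmd14 had 86.05, 127, 114 and 110.1 CPM, all below the controls given above. Their log2 fold changes were -0.66 (SE 0.16), -0.59 (SE 0.14) and -0.64 (SE 0.16), each with an adjusted p of 0.0393 in edgeR's test. All 3 lost the call when any control library, EE2 0.5 library 3, BPA 25 library 1, 2 or 3, or BPA 25000 library 4 was left out, and Psmc3 lost it in 5 further cases. Without the 4 libraries that stood apart 12 members were called, where 10.2% of all genes were called in that fit. The 6 ciliated markers summed to 25.8 to 46.7 CPM at BPA 25 and 1.26 to 3.48 CPM in controls, and the 4 red blood cell markers to 454 to 530 CPM at BPA 25 and 197 to 299.6 CPM in controls. Neither sum overlapped between the groups, and the part of these markers in the result was not tested. Psme4 had 725, 609, 440.1 and 589.9 CPM at BPA 25 and did not pass (log2 fold change 0.62, adjusted p = 0.0943, edgeR).

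At BPA 25000, 2 of 46 members fell, where 2.32% of all genes were called, 1.36% higher and 0.962% lower. Psmb5 had 44.5, 33.3, 40.5 and 38.4 CPM at BPA 25000, all below the lowest control, with a log2 fold change of -0.64 (SE 0.17, adjusted p = 0.0426, edgeR). The chaperone Psmd5 had 83.01, 84.6, 73.4 and 80.4 CPM at BPA 25000, against 91.5, 139, 122 and 113 CPM in controls (log2 fold change -0.54, SE 0.14, adjusted p = 0.045, edgeR). Psmd5 overlaps Cutal in the annotation. Psma3, with 154, 116, 113 and 114 CPM, was next and did not pass (log2 fold change -0.51, adjusted p = 0.0789, edgeR). Psmb5 and Psmd5 lost the call in the fit without a filter on low counts, and Psmd5 also in the fit of only the BPA 25000 and control libraries and without the 4 libraries that stood apart. Without those 4 libraries Psmb11 (log2 fold change -0.89, adjusted p = 0.0119) and Psma8 (-0.69, adjusted p = 0.043) passed in edgeR's test. Neither passed with all 32 libraries. The ciliated markers summed to 5.55 to 19.5 CPM at BPA 25000 and 1.26 to 3.48 CPM in controls, and their part in the result was not tested. Leaving out each library in turn, Psmb5 passed in 21 of 32 fits and Psmd5 in 15, and both failed without BPA 25000 library 2 or 4 or control library 2, 3 or 4. For 12 members all 4 exposed libraries were below all 4 controls, against 7.14% of all genes.

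At BPA 2500 none of the members passed in edgeR's test, where 0% of all genes were called. An unadjusted p under 0.05 was found for 12 members and for 1353 of all 13312 genes. DESeq2 also called 0 members. Psma8, an alpha subunit known from the testis, had 7.18, 8.39, 7.27 and 7.15 CPM at BPA 2500, against 14.5, 10.3, 12.8 and 11.2 CPM in controls (log2 fold change -0.70, adjusted p = 0.246, edgeR). Psmb11, the beta subunit known from the thymic cortex, had 9.77, 13.4, 11.3 and 11.1 CPM at BPA 2500, against 21.2, 21.3, 19.6 and 20.1 CPM in controls (log2 fold change -0.85, adjusted p = 0.252, edgeR). The lid subunit Psmd7 had 89.3, 88.9, 98.8 and 97.3 CPM at BPA 2500, against 112, 144, 138 and 117 CPM in controls (log2 fold change -0.45, adjusted p = 0.252, edgeR). The groups did not overlap for any of these 3, and for 8 members all 4 exposed libraries were below all 4 controls, against 3.75% of all genes. Psma8 overlaps Ss18 in the annotation. The ciliated markers summed to 5.36 to 134.6 CPM at BPA 2500 (controls 1.26 to 3.48) and the red blood cell markers to 317 to 592 CPM (controls 197 to 299.6). The macrophage markers summed to 255.1 to 434 CPM (controls 160 to 254.96). None of these sums overlapped, and their part in the result was not tested.

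In the mean of the 5 BPA groups against control, 2 members fell, where 1.34% of all genes were called, 0.759% lower: Psmd14 with a log2 fold change of -0.53 (SE 0.12, adjusted p = 0.0308) and Psmb4 with -0.51 (SE 0.13, adjusted p = 0.0456, edgeR). Psmb4 had means of 154, 147, 152, 176 and 172 CPM from BPA 2.5 to BPA 25000, against 228 CPM in controls. All 20 BPA libraries of Psmb4 were below the lowest control library; for Psmd14, BPA 2500 library 3 (165 CPM) lay just above control library 4 (164.8 CPM). Psmd12 was next, with -0.36 (adjusted p = 0.0579, edgeR). The call for Psmd14 was lost without BPA 25000 library 2 or control library 2, 3 or 4. Psmb4 passed in 12 of the 32 fits without a library and lost the call without any control library.

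The 2 EE2 groups gave no member past the threshold. At EE2 0.05, 0 of 46 passed in edgeR's test, where 0.0451% of all genes were called (0.0376% higher, 0.00751% lower), and DESeq2 called 0. An unadjusted p under 0.05 was found at this dose for 11 members and for 1528 of all 13312 genes. At EE2 0.5, 0 passed in edgeR's test, where 0.556% of all genes were called (0.263% higher, 0.293% lower). DESeq2 called 3 members, and its own share of all genes is not given here. At EE2 0.5, 19 members and 2080 of all 13312 genes had an unadjusted p under 0.05. Of the 80 respiratory chain genes 7 fell at this dose in edgeR's test, and of the 72 ribosomal protein genes 0. All 4 exposed libraries were below all 4 controls for 16 members at EE2 0.05 and 19 at EE2 0.5, against 5.66% and 6.02% of all genes. Limma voom with sample weights called 12 members at EE2 0.05 and 13 at EE2 0.5, where it called 10.3% and 9.17% of all genes. At EE2 0.05 the uterus markers summed to 343 to 433 CPM (controls 491 to 585) and the macrophage markers to 281 to 336 CPM (controls 160 to 255). At EE2 0.5 squamous markers summed to 31.4 to 229.7 CPM (controls 1.52 to 4.94) and red blood cell markers to 448 to 537 CPM (controls 197 to 299.6). Ciliated markers there summed to 3.68 to 4.88 CPM (controls 1.26 to 3.48). None of these sums overlapped, and their part in the result was not tested.

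Psmd12 had 62.95, 57.4, 61.2 and 71.3 CPM at EE2 0.05, all below the lowest control (log2 fold change -0.48, SE 0.13, adjusted p = 0.222, edgeR). Psmc4 had 45.3, 41.7, 46.6 and 51.9 CPM at EE2 0.05, against 59.2, 70.6, 65.00 and 64.8 CPM in controls (log2 fold change -0.49, adjusted p = 0.253, edgeR). Psmd2 had 165, 158, 165 and 162 CPM at EE2 0.05, against 199, 218, 223 and 211 CPM in controls (log2 fold change -0.39, adjusted p = 0.267, edgeR). For all 3 the groups were apart, with adjusted p-values far from the threshold.

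Psma8 had 6.97, 6.27, 8.13 and 6.83 CPM at EE2 0.5, below every control (log2 fold change -0.79, SE 0.19, adjusted p = 0.0536, edgeR). Psmb3 had 46.3, 54.3, 42.2 and 47.8 CPM at EE2 0.5 (log2 fold change -0.57, adjusted p = 0.0937, edgeR), also below every control. Psmd5 had 72.7, 87.8, 86.6 and 86.6 CPM at EE2 0.5, below every control too (log2 fold change -0.48, adjusted p = 0.0937, edgeR). For the mean of EE2 0.05 and EE2 0.5 over control, 0 members passed in edgeR's test, where 0.0676% of all genes were called (0.0376% higher, 0.03% lower). DESeq2 called 1 member, and its own share of all genes is not given here. In this comparison 24 members and 2001 of all 13312 genes had an unadjusted p under 0.05. The smallest p-values there were those of Psmd12 (log2 fold change -0.44, adjusted p = 0.0875), Psma8 (-0.52) and Psmd5 (-0.38) in edgeR's test.

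Between EE2 0.5 and EE2 0.05, 0 passed in edgeR's test, where 0.015% of all genes were called, and DESeq2 called 0. An unadjusted p under 0.05 was found for 6 members and for 1200 of all 13312 genes. Psmc3 had 81.4, 83.98, 79.4 and 106 CPM at EE2 0.5 and 63.4, 62.7, 54.99 and 67.5 CPM at EE2 0.05 (log2 fold change 0.50, adjusted p = 0.417, edgeR). Psmd4 had 70.1, 69.5, 75.9 and 93.2 CPM at EE2 0.5 and 54.99, 52.1, 51.7 and 67.5 CPM at EE2 0.05 (log2 fold change 0.45, adjusted p = 0.393, edgeR), and Psma8 had a log2 fold change of -0.54.

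The test among the 5 BPA doses does not compare them with the controls, but its filter, scaling and estimate of spread came from all 32 libraries. In this test 21 of 46 members passed, where 31.7% of all genes passed, so members were set against a high background. Fewer members passed in a fit of only the BPA groups, as given in the last section without the share of all genes. Which members passed in that fit is not given here. The tests among groups were followed under the alternatives by counts only, so members named from them carry no such check. Of these 21, the lowest mean was at BPA 2.5 for 10 and at BPA 250 for 7, and at another dose for 4. The first set held Psma1, Psma3, Psma5, Psma6, Psmb3, Psmb7, Psmd12, Psme2, Psmg1 and Psmg2, and the second Psma7, Psmc3, Psmc5, Psmd2, Psmd4, Psmd13 and Psmc3ip. The 2 sets were formed from the same means, were not counted over all genes and carry no test of their own. In the test among all 8 groups 25 members passed, where 31.7% of all genes passed.

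Psmb3 had mean levels of 39.3, 73.7, 81.8, 51.96 and 54.5 CPM from BPA 2.5 to BPA 25000 (adjusted p = 0.000218, edgeR's F test). The libraries of BPA 2.5 (29.1 to 43.7 CPM) did not overlap those of BPA 250 (66.8 to 95.5 CPM). Psmc3 had means of 69.5, 49.5, 42.3, 74.2 and 79.6 CPM over the same doses (adjusted p = 0.000368, edgeR's F test). Its libraries were 56.8 to 84.5 CPM at BPA 2.5 and 33.6 to 47.4 CPM at BPA 250, again without overlap and in the opposite order to Psmb3.

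Psmd4 followed Psmc3, with means of 70.8, 49.1, 43.01, 61.1 and 66.2 CPM (adjusted p = 0.00113, edgeR's F test). Psmg2, the partner of Psmg1 in building the alpha ring, followed Psmb3, with means of 12.9, 21.9, 20.6, 17.9 and 14.8 CPM (adjusted p = 0.0029, edgeR's F test). Psme4 averaged 355, 591, 575, 353 and 356 CPM, highest at the 2 doses at which Psmc3 and Psmd4 were lowest (adjusted p = 0.00564, edgeR's F test). Psmd5, with means of 82.6, 120.0, 123, 93.3 and 80.3 CPM, was high at the same 2 doses (adjusted p = 0.00158, edgeR's F test). Psmc3ip averaged 9.43 CPM at BPA 2.5 and 3.88 CPM at BPA 250 (adjusted p = 0.00338, edgeR's F test). Among all 8 groups the smallest adjusted p-values were those of Psmc3 (0.00029), Psmb3 (0.000369), Psmd4 (0.000419), Psmd5 (0.00172), Psmg2 (0.00215) and Psmd2 (0.00592) in edgeR's F test.

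**Figure D4:**
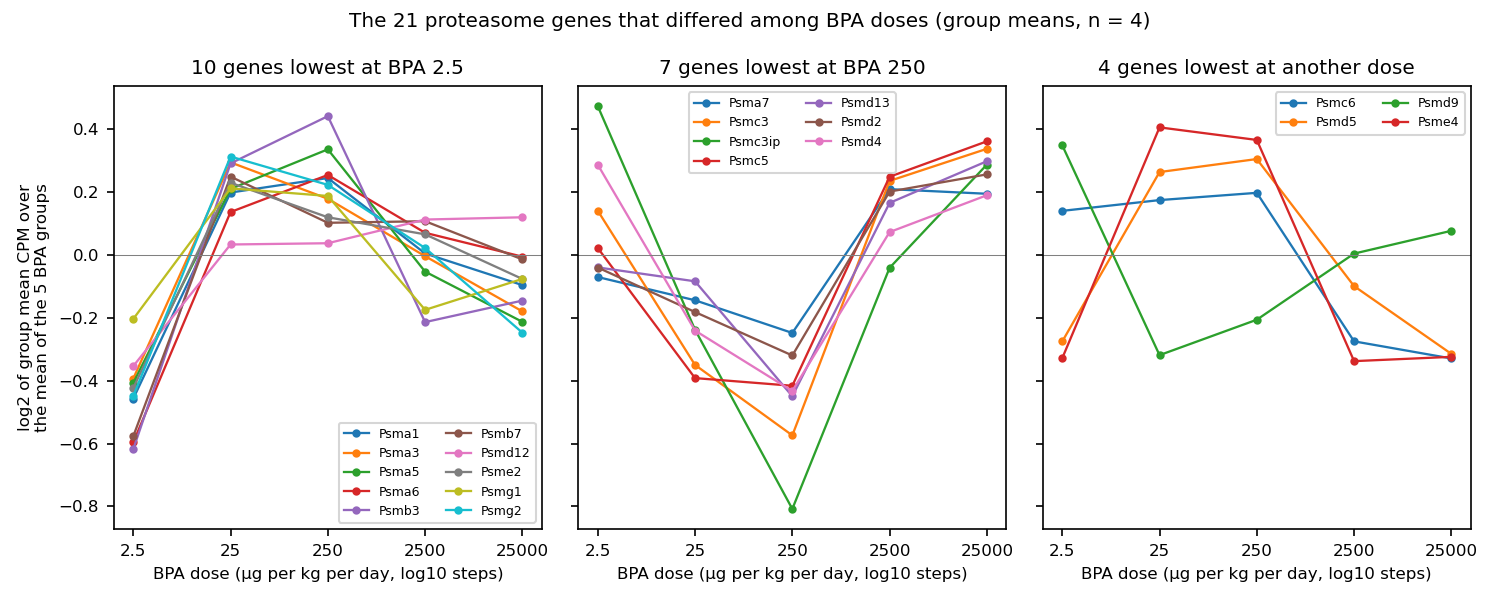
Log2 of the group mean CPM over the mean of the 5 BPA groups (vertical axis) against BPA dose (horizontal axis, log10 steps) for the 21 proteasome genes that passed the F test among BPA doses; lines are genes, points are means of 4 libraries. The 10 genes of the left panel are lowest at 2.5, the 7 of the middle panel lowest at 250, and 4 others are in the right panel.

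In the test of a linear trend over log10 BPA dose 3 of 46 members passed, where 4.62% of all genes were called, 1.2% higher and 3.42% lower with dose. Psmc1 and Psmd12 rose by 0.12 and 0.10 on the log2 scale per 10-fold dose (adjusted p = 0.0392 and 0.0441, edgeR). Psmc6, an ATPase that overlaps Styx in the annotation, had means of 221, 226, 229.9, 166 and 159.5 CPM and fell by 0.14 per 10-fold dose (adjusted p = 0.0299, edgeR). None of the 3 passed in a fit of the BPA groups alone. All 3 lost the call without BPA 2.5 library 1 or 2 or without any of the BPA 25000 libraries.

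Psma8 averaged 11.1, 8.88, 9.05, 7.50 and 8.39 CPM from BPA 2.5 to BPA 25000 and 12.2 CPM in controls. Psmb11 averaged 17.01, 12.7, 14.8, 11.4 and 15.6 CPM over the same doses and 20.6 CPM in controls. Both had their highest mean in controls and neither passed the test among BPA doses. The activator Psme3, which caps the core in the nucleus, averaged between 85.7 and 93.6 CPM in the exposed groups and 98.7 CPM in controls, and Psme1 averaged between 224 and 283 CPM in the exposed groups and 259 CPM in controls. Psme1 was thus on both sides of its control mean, whereas every exposed mean of Psme3 was below it.

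The immunoproteasome subunits, which replace the catalytic subunits under interferon, were measured beside the members. In edgeR's test Psmb8, Psmb9 and Psmb10 did not pass against control in any group, and 1 of them had an unadjusted p under 0.05 at BPA 2.5 and none at the other doses. At BPA 2.5, 3566 of all 13312 genes had an unadjusted p under 0.05. Psmb8 averaged 23.8 CPM at BPA 2.5 and 39.8 CPM at BPA 25000, with 25.9 CPM in controls, and passed the test among BPA doses (adjusted p = 0.0495, edgeR's F test). Psmb10 averaged 16.3 CPM at BPA 2.5 and 24.8 CPM in controls.

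Other genes of the ubiquitin pathway were taken from a list of 34, of which 30 were tested, the 3 immunoproteasome subunits included. At BPA 2.5, 5 of 30 (16.7%) fell and none rose, where 11.4% of all genes were called and 4.39% called lower, among them Rps27a (log2 fold change -1.12), which encodes ubiquitin fused to a ribosomal protein, the proteasome-bound thioredoxin Txnl1 (-0.63), the shuttle factor Rad23b (-0.53) and the transcription factor Nfe2l2 (-0.42). At BPA 250, 4 rose and 2 fell, where 8.79% of all genes were called, 4.44% higher and 4.35% lower. The shuttle factor Ubqln2 (1.29), Zfand5 (0.90), which stimulates the proteasome, the ubiquitin-activating enzyme Uba6 (0.86) and Nfe2l2 (0.46) rose, and the ubiquitin receptor Adrm1 (-0.73) and the polyubiquitin gene Ubb (-0.55) fell. At BPA 25 Ubqln2 rose (0.80), where 1.92% of all genes were called, and at EE2 0.05, EE2 0.5, BPA 2500 and BPA 25000 none of the 30 passed in edgeR's test, where 4, 8, 1 and 5 had an unadjusted p under 0.05. Over all 13312 genes 1528, 2080, 1353 and 2571 had an unadjusted p under 0.05 in these last groups, in the same order.

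Nfe2l2 averaged 169 CPM at BPA 2.5, 299.8 CPM at BPA 25 and 310.3 CPM at BPA 250, and 226 CPM in controls, and passed the test among BPA doses (adjusted p = 3.97e-05, edgeR's F test). Ubqln2 averaged 85.2, 172, 242, 76.8 and 69.4 CPM from BPA 2.5 to BPA 25000 (adjusted p = 8.67e-07, edgeR's F test). In the test among BPA doses 13 of the 30 passed, where 31.7% of all genes passed.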

How the data were processed

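Total RNA of rat uterus was sequenced on Illumina instruments, and whole-number read counts per gene, keyed by NCBI gene ID, were deposited by the authors for 32 libraries. Per the submitters' processing notes, bcl2fastq, TopHat and edgeR were used with the rn5 build; their versions, the annotation, the strand setting and the handling of multiply mapped reads were not given there. Symbols came from the RefSeq table of GRCr8, which matched 17167 IDs; the 160 unmatched IDs held 1.82% of counts. Since builds differ, no coordinates other than those of the RefSeq promoters are given. Genes were filtered with filterByExpr (minimum count 10, minimum total 15). One edgeR (4.0.16, R 4.3.3) quasi-likelihood model with TMM held all 8 groups, and 13 comparisons were tested, with Benjamini-Hochberg adjustment over 13312 genes at 0.05. Centred log2 CPM used a prior count of 2. The members, lists, motifs and markers were chosen with earlier results of these data known. Named genes were, per comparison with control, members past the threshold, at most 6 in each direction by size, or the 3 smallest p-values where fewer than 3 passed, the 6 smallest in the F tests, and a panel (the catalytic subunits, Psma8, Psmb11, Psmd14, Psmd4, Psmc4, Psme1 to Psme4, Psmf1, Psmg1); other members named were chosen after their values were seen. Alternatives were DESeq2 (1.42.0), its size factors, limma voom with sample weights (3.58.1), no filter, a filter of 1 CPM in 16 libraries, only the groups compared, and leaving out each library or the 4 that stood apart. The code was tested on simulated data. No 2 libraries of a group held identical values, and the 48 within-group pairs differed by more than sampling noise (chi-square per degree of freedom at least 12.5). The values of 1 gene of the pathway list are not reported here.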

Additional observations from a re-analysis of the deposited data

Results flagged for a closer look

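In 16 of the 240 groups of 4 libraries examined over 30 named members, a single library lay far from the other 3; chance alone gives about 1 in 20. BPA 25000 library 1 was high for Psma3 (154 CPM) and Psmb3 (73.9 CPM), and BPA 25000 library 3, one of those that stood apart, was high for Psmb11 (29.3 CPM). BPA 250 library 2 was apart for Psmc4 (48.6 CPM) and Psmd2 (146 CPM), both called at that dose. Among BPA 2500 libraries, library 2 was apart for Psma8 (8.39 CPM), library 4 for Psmd5 (84.4 CPM) and library 1 for Psme1 (194 CPM). Among EE2 libraries, EE2 0.05 was apart for Psma8 in library 1 (15.1 CPM), for Psmb6 in library 4 (21 CPM) and for Psmc5 in library 3 (45.6 CPM), and EE2 0.5 for Psmd5 in library 1 (72.7 CPM) and Psme1 in library 4 (352 CPM). Among controls, library 3 was apart for Psma6 (119 CPM), library 1 for Psmc1 (82.6 CPM) and library 2 for Psmc5 (95.3 CPM). The control libraries are shared by all 7 comparisons with control. Without control library 3 the call of Psma6 at BPA 2.5 was lost, and without control library 2 that of Psmc5 at BPA 250.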

How the results depend on the processing

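No paired analysis was possible because the replicate numbers were given in accession order and tie no library to another. No result changed direction past the threshold under any alternative run, and the cause of the changes below was not tested. Limma voom with sample weights, with the share of all genes it called in brackets, called 12 members at EE2 0.05 (10.3%), 13 at EE2 0.5 (9.17%), 15 at BPA 25 (19.9%), 16 at BPA 250 (22.5%), 24 at BPA 25000 (30.9%), 26 for the BPA mean (19%), 19 for the EE2 mean (13.9%), 5 for the trend (20.3%) and 38 among the 8 groups (69.3%). DESeq2, not run for the tests among groups, called 3 at EE2 0.5, 9 at BPA 25, 7 for the BPA mean and 1 for the EE2 mean. A fit of only the groups compared called 1 at EE2 0.05, 1 at EE2 0.5, 0 at BPA 2.5, 10 at BPA 25, 0 for the BPA mean, 4 for the EE2 mean, 0 for the trend and 13 among BPA doses. Without the 4 libraries that stood apart the counts, with the share of all genes, were 1 at EE2 0.5 (1.25%), 13 at BPA 2.5 (3.92%), 12 at BPA 25 (10.2%), 1 at BPA 2500 (0.551%), 10 for the BPA mean (4.68%) and 1 for the trend (1.19%). With no filter on low counts they were 0 at BPA 25000 and 1 for the BPA mean, and with the CPM filter 5 at BPA 25. Leaving out each library in turn gave 0 to 1 at EE2 0.5, 7 to 23 at BPA 2.5, 0 to 8 at BPA 25, 2 to 10 at BPA 250, 0 to 3 at BPA 25000, 0 to 8 for the BPA mean, 0 to 1 for the EE2 mean and 0 to 4 for the trend. Shares of all genes are not set here beside the counts of DESeq2, of only the groups compared, or of fits without 1 library. Whether those counts moved apart from the calls over all genes was not tested. At BPA 2.5, DESeq2 called 23 members, among them all 21 of edgeR, voom called 25 (30.8% of all genes) with 18 shared, and DESeq2 size factors called 20, all shared. Over the named genes, 1797 alternative values kept their side of the threshold, 184 lost the call and 46 gained it. The 1797 include values of genes that had not passed in the main fit and had no call to lose. The tests among groups are not part of these numbers.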
